A study of Homo sapiens with 6 samples.

Results

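Mitochondrial ribosomal protein genes were taken as all symbols of the table made of MRPL or MRPS and a number, with a trailing A, B or C allowed for MRPS. This gave 77 of 26372 genes, of which 48 carried a large-subunit symbol (MRPL) and 29 a small-subunit symbol (MRPS). The values came from BE(2)-M17, an established human neuroblastoma line, as FPKM (fragments per kilobase of gene and per total of mapped fragments) from polyadenylated RNA. The 3 control libraries and the 3 libraries of cells with knockdown of the long non-coding RNA GOMAFU (symbol MIAT) carry the replicate numbers 2, 3 and 4 in both groups. Per the labels, transfections in the study used 100 pmol of small RNA with Lipofectamine 2000, but neither the knockdown sequence nor what the control cells received is stated. It is also not stated that the replicates were separate cultures, so the p-values describe the spread among these libraries, possibly a technical one. Values are listed below in the order of replicates 2, 3 and 4.

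The mitochondrial ribosome translates the few messages of the mitochondrial genome, all of which encode core subunits of the oxidative phosphorylation complexes. Its RNAs are made inside the organelle, whereas every one of its proteins is encoded in the nucleus, translated in the cytosol and imported. It is richer in protein than its bacterial relatives, because many of its proteins have no bacterial counterpart, and inherited defects in single members such as MRPL44, MRPS22 and MRPS34 cause oxidative phosphorylation disease.

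MIAT, the targeted transcript, had control values of 5.38, 5.96 and 8.57 FPKM and knockdown values of 1.27, 1.32 and 3.21 FPKM. The groups did not overlap, and the mean after knockdown was 29.2% of that in the controls (log2 difference -1.42, SE 0.27; limma adjusted p = 0.9998; exact two-sided permutation p = 0.1, the smallest that 3 against 3 allows). Library totals ran from 579365 to 637153 FPKM, and the depth reached in reads is unknown beside a target of 100 M reads per sample in the labels. Knockdown replicate 4 stood apart: the summed level of 13 interferon-induced genes was 8995 FPKM there, against 453 and 73.6 in knockdown replicates 2 and 3 and 37.8 to 43.5 in the controls. In that list the smallest p-values were those of IRF9, a component of the interferon-activated transcription factor, with control values of 7.37, 6.06 and 5.12 FPKM and knockdown values of 35.3, 10.3 and 113 FPKM, and of the antiviral enzyme OAS1, with control values of 1.39, 1.23 and 0.290 FPKM and knockdown values of 20.01, 2.83 and 139 FPKM. Of 11 adrenergic neuroblastoma markers, 9 averaged at least 1 FPKM. The other 2, among them TH, the enzyme that starts catecholamine synthesis, stayed under 1 FPKM in all 6 libraries. The 11 markers summed to 5176 to 6290 FPKM per library, with a highest gene mean of 2002 FPKM. All 4 epithelial, all 3 endothelial, 5 of 6 fibroblast, 2 of 3 blood and 2 of 4 glial markers were under 1 FPKM throughout.

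All 77 genes were expressed, and all passed the filter of a mean of at least 1 FPKM that left 12164 genes. They were moderately abundant: 75 of 77 lay above the median level of the genes tested, the exceptions being MRPL17 and MRPL19. Control means ran from 7.82 to 236 FPKM, with a median of 49.9 FPKM. Of the 77 genes, 57 lay within 2 times of that median in either direction. The upper quartile was 2.07 times the lower quartile, compared with 3.03 times for 82 cytosolic ribosomal proteins (median 2326 FPKM) and 3.54 times for 75 nuclear oxidative phosphorylation subunits (median 164 FPKM). FPKM is per length, which allows a rough comparison of levels between genes. How reads of near-identical copies and overlapping genes were shared is not given.

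The most abundant large-subunit transcript was MRPL33, a small protein with a bacterial counterpart, with control values of 246, 247 and 215 FPKM and knockdown values of 209, 254 and 183 FPKM. The groups overlapped, and replicate 4 was the lowest library of each. MRPL51, a protein without a bacterial counterpart, followed with control values of 230.1, 208 and 179 FPKM and knockdown values of 189.5, 229 and 161 FPKM.

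MRPL12, the stalk protein that contacts translation factors, came next with control values of 185, 177 and 144 FPKM and knockdown values of 160.4, 173 and 140.2 FPKM. In both groups replicate 4 sat well below replicates 2 and 3, and the difference between group means, -0.09 on the log2(FPKM + 1) scale (SE 0.12; limma adjusted p = 0.9998), was within that spread. It ran from -0.20 without control replicate 4 to -0.01 without knockdown replicate 4. MRPL10, which anchors MRPL12 to the ribosome, was much lower, at 35.1 ± 3.60 FPKM in the controls against 33.2 ± 3.73 after knockdown (SD, n = 3 each).

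In the small subunit MRPS24 led with control values of 213, 205 and 178 FPKM and knockdown values of 185, 213 and 153 FPKM. MRPS34, a protein without a bacterial counterpart, had control values of 177, 173 and 147 FPKM and knockdown values of 159.5, 169 and 129 FPKM. MRPS21 had control values of 151, 134 and 125 FPKM and knockdown values of 131, 143 and 123 FPKM. All 3 transcripts overlapped between groups, and replicate 4 was the lowest library of each group for each of them.

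At the lower end of the large subunit stood MRPL19, with control values of 7.63, 8.38 and 7.45 FPKM and knockdown values of 8.06, 8.10 and 6.69 FPKM. MRPL17 had control values of 10.2, 10.2 and 8.48 FPKM and knockdown values of 8.86, 9.97 and 10.8 FPKM. MRPL22, which lines the tunnel through which the new protein leaves, had control values of 14.1, 13.5 and 12.7 FPKM and knockdown values of 13.2, 14.9 and 13.6 FPKM. These 3 were the only large-subunit genes with a control mean under 15 FPKM, and each overlapped between groups.

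The lowest small-subunit gene was MRPS25, with control values of 13.2, 14.6 and 13.8 FPKM and knockdown values of 13.8, 13.4 and 12.6 FPKM. MRPS10 had control values of 28.9, 26.9 and 23.4 FPKM and knockdown values of 28.5, 28.1 and 21.7 FPKM. MRPS14 was next in level and is described with the group differences. MRPL33 stood 30.2 times above MRPL19 in the controls, although both encode parts of one particle.

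**Figure D1:**
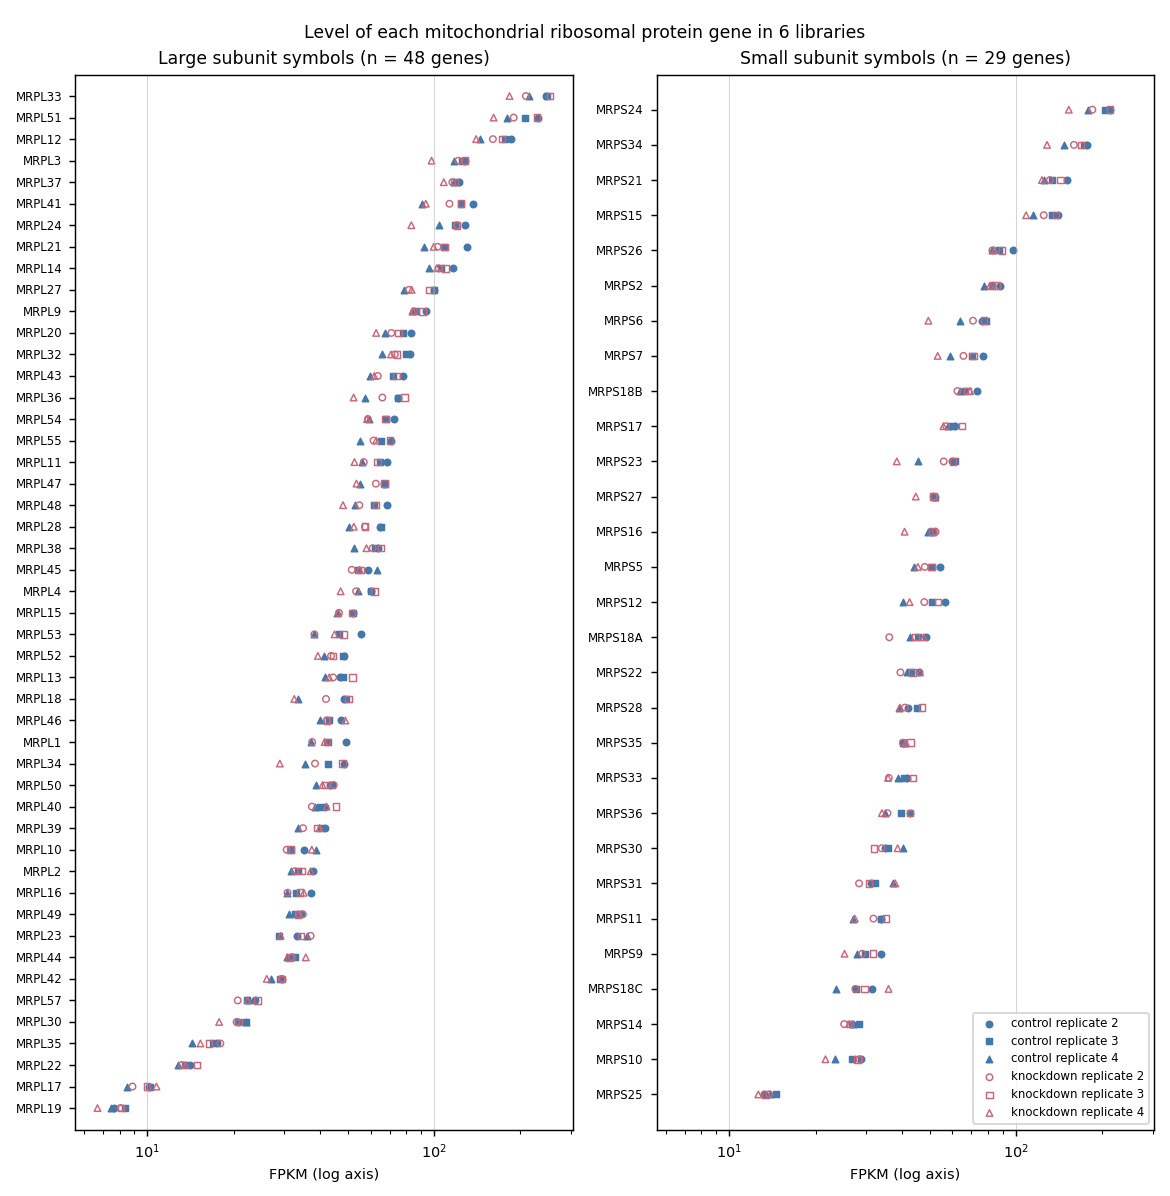
FPKM (log axis) of every member gene in the 6 libraries, large-subunit symbols at left and small-subunit symbols at right, ordered by control mean. Filled symbols are controls and open symbols knockdown libraries, with circles, squares and triangles for replicates 2, 3 and 4. The order from MRPL19 to MRPL33 spans control means of 7.82 to 236 FPKM, while the 6 values of a gene lie close together.

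The order of levels was nearly the same in all libraries. Over the 77 genes, Pearson's r of log2(FPKM + 1) between 2 libraries ran from 0.974 to 0.997 over the 15 pairs, and without knockdown replicate 4 the lowest r was 0.985. These points share gene length and mapping, so r is given as a description across genes, which are not independent replicates.

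Large-subunit symbols had slightly higher medians than small-subunit symbols in every library. In control replicates 2, 3 and 4 the medians were 57.1, 53.2 and 48.1 FPKM for the large subunit and 51.3, 51.0 and 42.7 FPKM for the small. In knockdown replicates 2, 3 and 4 they were 49.1, 53.7 and 47.7 FPKM for the large subunit and 47.9, 50.7 and 42.6 FPKM for the small. The gap on the log2(FPKM + 1) scale was 0.13 ± 0.06 for the controls and 0.09 ± 0.06 for the knockdown libraries (SD, n = 3 each), so the groups did not differ beyond their spread. The gap rested on where a few genes are counted. MRPS30 and MRPS18A carry small-subunit symbols but sit in the large subunit of the solved human particle, and MRPS36 is not counted there as a ribosomal protein. With these placed by structure, the mean gap over the 6 libraries went from 0.11 to -0.0027.

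The summed level of the 48 large-subunit symbols was 1.69 to 1.76 times that of the 29 small-subunit symbols over the 6 libraries. These sums run over unlike numbers of genes, so the ratio does not describe a difference in level per gene. Among the members, placed by symbol, genes with a bacterial counterpart had a higher median control level than those without. In the large subunit the medians were 59.2 FPKM over 30 genes and 46.4 FPKM over 18 genes, and in the small subunit 50.7 FPKM over 17 genes and 41.3 FPKM over 12 genes. The 12 genes include MRPS30 and MRPS36, which do not belong to the small subunit by structure. The split leaves out 7 further mitoribosome proteins with other symbols, whose median control level was 92.75 FPKM. No test of the difference between genes with and without a bacterial counterpart was made.

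Knockdown against control was the comparison of the study. No member passed the threshold of an adjusted p under 0.05 (limma over 12164 genes), and 0 members had an unadjusted p under 0.05. The background was the same at the threshold, with 0% of all genes called, and 2.16% of all genes had an unadjusted p under 0.05. The smallest unadjusted p among the members was 0.169. The 95% interval (limma, not adjusted) included 0 for all 77 genes. It lay within 0.5 of 0 on the log2(FPKM + 1) scale for 72 of 77, so for those genes larger group differences lay outside the interval. The 5 with wider intervals were MRPL18, MRPL24, MRPL34, MRPS6 and MRPS23, named after their values were seen.

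Most fitted differences were small and below 0. The count below 0 was 60 of 77 members (77.9%), against 53.3% of all genes tested. For cytosolic ribosomal proteins it was 81 of 82, and for nuclear oxidative phosphorylation subunits 71 of 75. The median log2(FPKM + 1) difference was -0.07 for the large subunit and -0.06 for the small, beside -0.0081 over all genes. Individual values ran from -0.16 for MRPS6 to 0.16 for MRPS18C. For 72 of 77 members the group difference was smaller than the range of the 3 controls (83.3% of all genes tested). The medians turned on single libraries. Without control replicate 2 the large-subunit median was 0.0064 and the small-subunit median -0.0043. Without knockdown replicate 4 they were -0.02 and 0.0032, without knockdown replicate 2 -0.04 and -0.03, and without control replicate 3 -0.03 and -0.05. Without control replicate 4 they were -0.11 and -0.10, and without knockdown replicate 3 -0.11 and -0.09.

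**Figure D2:**
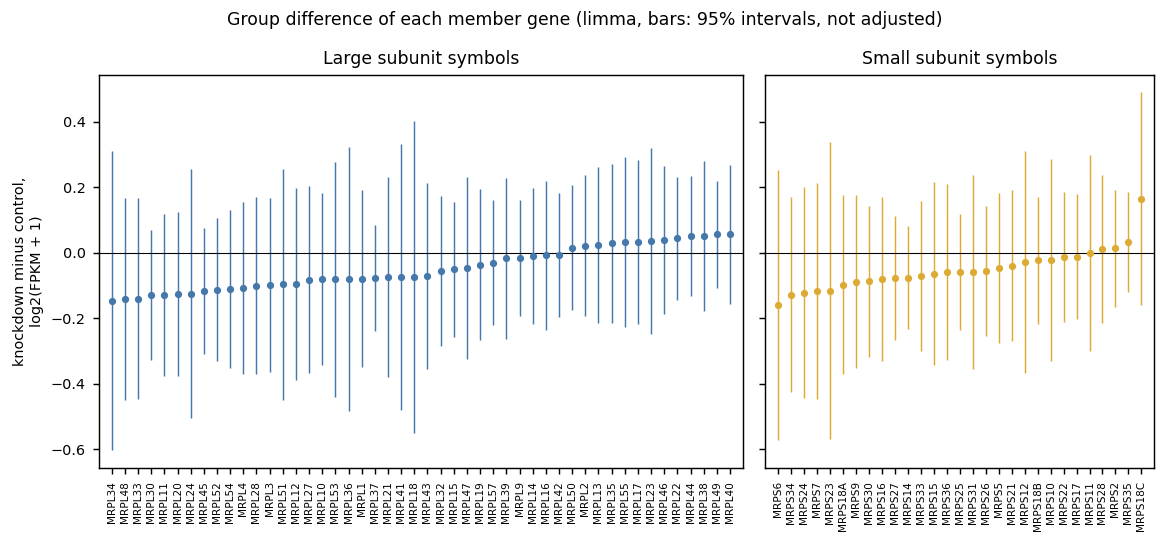
Knockdown minus control difference in log2(FPKM + 1) for each member gene (points) with its 95% interval from limma (bars, not adjusted), ordered within each subunit. Every bar crosses 0, and the points run from -0.16 for MRPS6 to 0.16 for MRPS18C.

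The lower member with the smallest p was MRPL30, with control values of 20.7, 22.03 and 22.1 FPKM and knockdown values of 20.5, 20.8 and 17.8 FPKM. Knockdown replicate 3 lay just above the lowest control, so the groups overlapped (log2 difference -0.13, SE 0.08; limma adjusted p = 0.9998, as for every member named here). MRPL45, which lies at the tunnel exit and tethers the ribosome to the inner membrane, had control values of 58.8, 54.2 and 63.3 FPKM and knockdown values of 51.6, 55.4 and 54.9 FPKM (log2 difference -0.12, SE 0.08). The difference was -0.06 for MRPL30 without knockdown replicate 4 and -0.06 for MRPL45 without control replicate 4.

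MRPL11, a protein of the stalk base, had control values of 68.3, 64.95 and 56.2 FPKM and knockdown values of 56.9, 63.3 and 52.7 FPKM (log2 difference -0.13, SE 0.10). MRPL52, which has no bacterial counterpart, had control values of 48.6, 48.2 and 41.4 FPKM and knockdown values of 43.7, 44.4 and 39.3 FPKM (difference -0.11, SE 0.09). MRPL20 had control values of 83.2, 77.6 and 67.6 FPKM and knockdown values of 70.95, 75.1 and 62.8 FPKM (difference -0.13, SE 0.11). In all 3 the control and knockdown values interleaved. Without control replicate 4 the differences of MRPL11, MRPL52 and MRPL20 were -0.21, -0.19 and -0.21, and without knockdown replicate 4 they were -0.07, -0.06 and -0.05. Without control replicate 2 they were -0.07, -0.07 and -0.06.

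Only MRPS14 and MRPS27 had all 3 knockdown values below all 3 controls, 2 of 77 members (2.6%) against 4.35% of all genes tested. MRPS14, a protein of the small-subunit head, had control values of 26.8, 28.4 and 27.03 FPKM and knockdown values of 25.2, 26.4 and 26.2 FPKM (log2 difference -0.08, SE 0.07). MRPS27, an RNA-binding protein of the pentatricopeptide repeat class, had control values of 52.1, 51.7 and 52.4 FPKM and knockdown values of 51.6, 51.7 and 44.8 FPKM, so that only knockdown replicate 4 stood clear of the lowest control. No member was higher in all knockdown libraries, against 4.01% of all genes. The count of members lower without overlap was 16 without control replicate 4, 9 without knockdown replicate 3, 5 without knockdown replicate 4 and 4 without control replicate 2. With 2 libraries in a group such counts rise for all genes too, to 10.79%, 10.73%, 11.65% and 7.55% of them in those settings. Taken out of 77, the member count stood above the share of all genes without control replicate 4. It stood below that share without knockdown replicate 4.

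The higher member with the smallest p was MRPS18C, the counterpart of a bacterial small-subunit protein, with control values of 31.5, 27.7 and 23.6 FPKM and knockdown values of 27.6, 29.6 and 35.95 FPKM. The groups overlapped, and the highest value came from knockdown replicate 4 (log2 difference 0.16, SE 0.14). The difference was 0.06 without control replicate 4, 0.06 without knockdown replicate 4, 0.26 without control replicate 2 and -0.05 without both libraries numbered 4. Its relative MRPS18A, which descends from the same bacterial protein but sits in the large subunit, had control values of 48.8, 45.5 and 42.7 FPKM and knockdown values of 36.2, 44.6 and 47.7 FPKM (difference -0.10, SE 0.12). MRPS18B had control values of 72.9, 66.2 and 64.01 FPKM and knockdown values of 62.5, 67.95 and 69.2 FPKM (difference -0.02, SE 0.08). The relatives kept the order MRPS18B, MRPS18A, MRPS18C in all 6 libraries. Without knockdown replicate 2 the differences of MRPS18A and MRPS18B were 0.02 and 0.02, and without control replicate 2 that of MRPS18B was 0.03.

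The other higher members with the smallest p had log2 differences of 0.04 to 0.06, each smaller than the range of its controls. MRPL49 had control values of 34.2, 32.8 and 31.1 FPKM and knockdown values of 34.8, 33.6 and 33.7 FPKM. MRPL44, which resembles a ribonuclease, had control values of 31.8, 32.7 and 30.8 FPKM and knockdown values of 31.9, 31.4 and 35.7 FPKM. MRPL38 had control values of 63.6, 62.2 and 52.5 FPKM and knockdown values of 61.04, 65.2 and 58.1 FPKM. MRPL40 is the member on chromosome 22, in the region lost in the 22q11 deletion, at chr22:19431902-19436075 on the plus strand (GRCh38). It had control values of 41.5, 40.1 and 38.4 FPKM and knockdown values of 37.5, 45.6 and 42.2 FPKM, so the knockdown values lay on both sides of the controls. The difference was -0.0060 for MRPL44 without knockdown replicate 4, -0.0079 for MRPL40 and -0.0049 for MRPL22 without knockdown replicate 3, and -0.03 for MRPL38 without control replicate 4.

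MRPS30 and MRPS36, the symbols whose place differs from their name, also overlapped between groups. MRPS30 had control values of 34.98, 35.9 and 40.3 FPKM and knockdown values of 34.04, 31.96 and 38.7 FPKM (log2 difference -0.09, SE 0.10). The difference of MRPS30 was -0.03 without control replicate 4 and without knockdown replicate 3, and -0.16 without knockdown replicate 4. MRPS36, known as a subunit of the 2-oxoglutarate dehydrogenase complex, had control values of 42.6, 39.7 and 34.9 FPKM and knockdown values of 35.7, 42.7 and 34.1 FPKM (difference -0.06, SE 0.11). For MRPS36 the difference was 0.0033 without control replicate 2 and without knockdown replicate 4.

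Library by library, the members shared a low position in the libraries numbered 4. Relative to the mean of the other controls, the median member lay at 0.15 and 0.04 in control replicates 2 and 3 and at -0.19 in control replicate 4, on the log2(FPKM + 1) scale. Relative to the mean of all controls, it was -0.06, 0.05 and -0.13 in knockdown replicates 2, 3 and 4. The share of total FPKM taken by the members was 0.833%, 0.825% and 0.726% in control replicates 2, 3 and 4 and 0.809%, 0.829% and 0.725% in knockdown replicates 2, 3 and 4. The lowest share in each group was that of replicate 4, and the group means, 0.795% ± 0.060 and 0.788% ± 0.055 (SD, n = 3 each), differed by less than their spread.

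**Figure D3:**
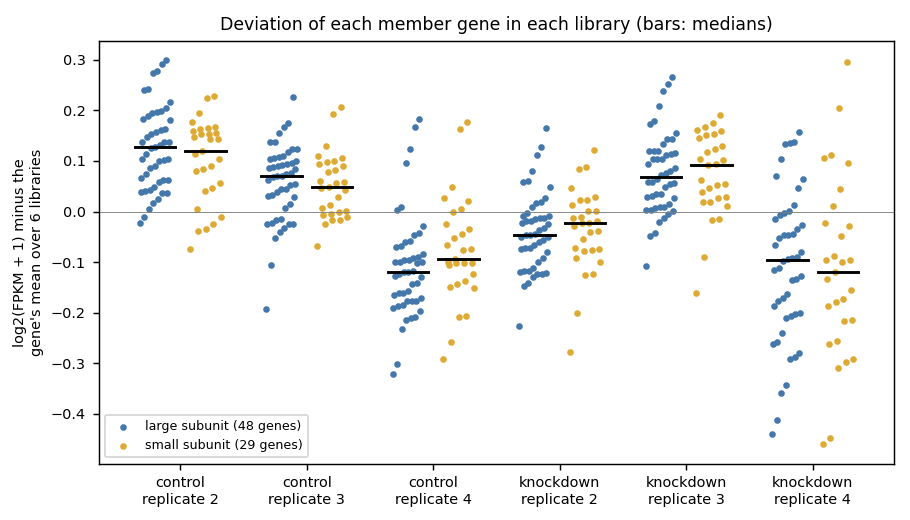
Each member's log2(FPKM + 1) in a library minus its mean over the 6 libraries, with the large subunit in blue, the small subunit in yellow and medians as bars. Both subunits sit high in control replicates 2 and 3 and knockdown replicate 3, and low in control replicate 4 and knockdown replicate 4.

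Knockdown replicate 2 lay below all 3 controls for 18 of 77 members (23.4%, against 25.9% of all genes) and above them for 5 (6.49%, against 23.1%). Knockdown replicate 3 lay below them for 5 (6.49%, against 21.2%) and above them for 17 (22.1%, against 22.7%). Knockdown replicate 4 lay below them for 35 (45.5%, against 35.9%) and above them for 8 (10.4%, against 30.7%). The 3 knockdown libraries therefore gave unlike pictures of the same genes. Of the 77 members, 36 had their highest value in control replicate 2, where 17.8% of all genes had theirs. The lowest value was in knockdown replicate 4 for 34 members (31.4% of all genes) and in control replicate 4 for 31 (16.9% of all genes).

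Replicate 4 was the lowest of the controls for 66 of 77 members, against 43.5% of all genes, and the lowest of the knockdown libraries for 52 of 77, against 43.8%. In both groups at once it was the lowest library for 48 of 77 members (62.3%), against 30.1% of all genes tested. The share was alike in the subunits, 30 of 48 (62.5%) and 18 of 29 (62.1%). The same count was 65 of 75 for nuclear oxidative phosphorylation subunits and 6 of 82 for cytosolic ribosomal proteins, with no test made between lists. Interferon-induced genes were high in knockdown replicate 4 but not in control replicate 4, where their summed level was 37.8 FPKM, and their part in the shift was not tested. The labels name no batch that the replicate numbers stand for.

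The members furthest below their group's other libraries in replicate 4 came from both subunits. MRPL18, a protein of the central protuberance, had control values of 48.6, 49.4 and 33.4 FPKM and knockdown values of 41.97, 50.3 and 32.5 FPKM. MRPS23 had control values of 59.8, 61.1 and 45.5 FPKM and knockdown values of 56.03, 60.4 and 38.4 FPKM. MRPL34 had control values of 48.4, 42.6 and 35.5 FPKM and knockdown values of 38.4, 47.9 and 28.96 FPKM. In each, replicate 4 was the lowest library of its group, and the group means differed by less than the gap between replicates.

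A few members went the other way. Replicate 4 was the highest library in both groups for MRPL10, MRPS30 and MRPS31, 3 of 77 (3.9%) against 26.1% of all genes. MRPS31 had control values of 31.1, 32.4 and 37.2 FPKM and knockdown values of 28.4, 30.7 and 37.96 FPKM. MRPL10 had control values of 35.1, 31.6 and 38.8 FPKM and knockdown values of 30.6, 31.5 and 37.4 FPKM, and so differed in direction from its stalk partner MRPL12 in replicate 4. Across the 77 members the replicate 4 shifts of the groups had a Spearman rho of 0.40, compared with 0.59 across 11007 protein-coding genes tested (descriptions across genes that share libraries). The genes of these last paragraphs were named after their values were seen.

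**Figure D4:**
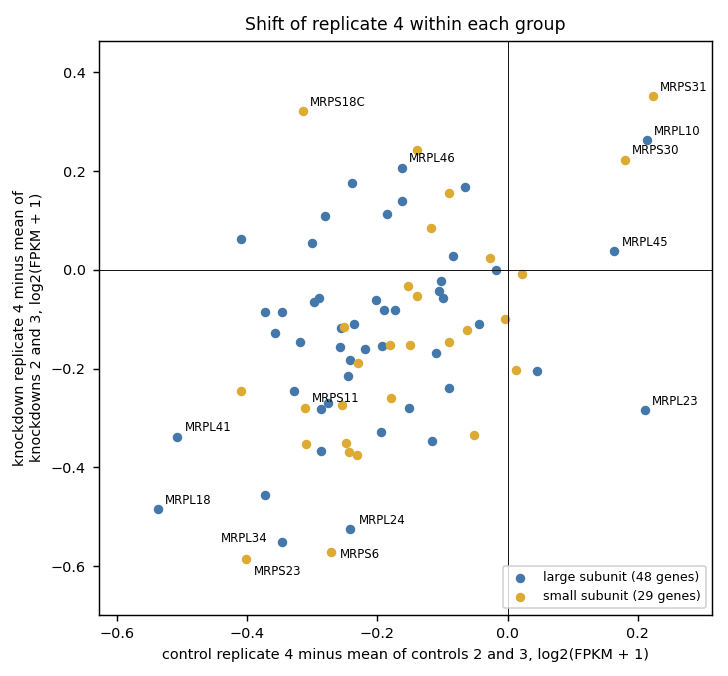
Shift of control replicate 4 from the mean of control replicates 2 and 3 (horizontal) and of knockdown replicate 4 from the mean of knockdown replicates 2 and 3 (vertical), both in log2(FPKM + 1), 1 point per member. Of 77 points 55 lie below 0 on both axes, and only MRPL10, MRPL45, MRPS30 and MRPS31 lie above 0 on both.

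The size of the shift varied with annotated transcript length. Members of up to 1000 bases (14 genes) had a median shift of -0.24 in control replicate 4 and -0.31 in knockdown replicate 4. The medians were -0.23 and -0.15 for 29 members of up to 1500 bases, -0.13 and 0.01 for 18 of up to 2000 bases, and -0.10 and -0.16 for 16 longer ones, so no steady order held in knockdown replicate 4. Among all protein-coding genes tested the medians were -0.15 and -0.14 up to 1000 bases (465 genes) and -0.145 and -0.106 up to 1500 bases (814 genes). They were -0.105 and -0.084 up to 2000 bases (1125 genes) and 0.01 and 0.01 over 2000 bases (8603 genes). The members had the lower median in every length class in control replicate 4. In knockdown replicate 4 they had it in every class except that of 1500 to 2000 bases. The members are short as a class, with a median length of 1462 bases against 3362 bases. Spearman's rho of length with the shift was 0.41 in control replicate 4 and 0.19 in knockdown replicate 4 over the 77 members. Members with longer transcripts also had lower levels (rho -0.58). The part of length in the shift was not tested.

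**Figure D5:**
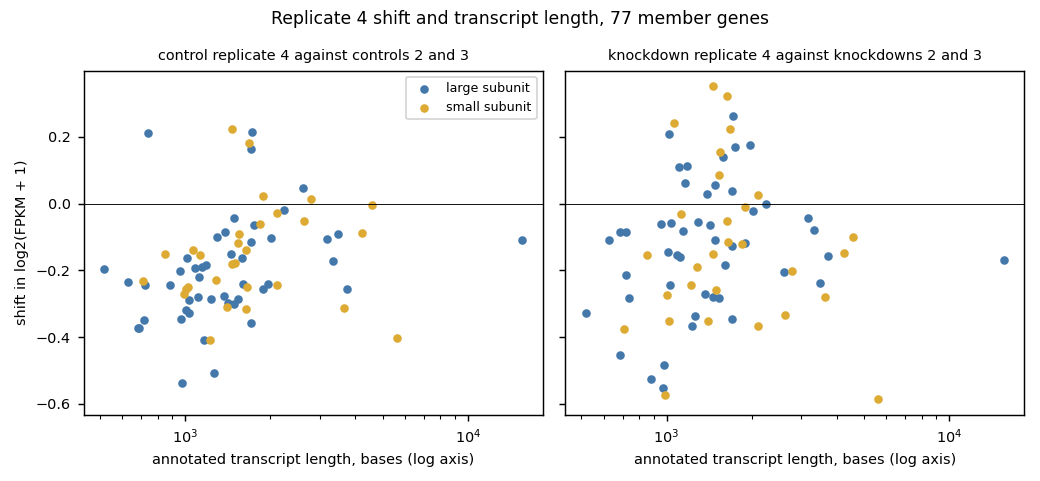
Annotated transcript length (log axis, bases) of each member against its replicate 4 shift in log2(FPKM + 1), controls at left and knockdown libraries at right. Most of the shortest transcripts lie below 0 in both panels, with wide scatter at every length.

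The members are scattered over 21 chromosomes, with at most 8 on one of them (chromosomes 1 and 2). Of the 77 genes, 29 (37.7%) start within 1000 bases of a protein-coding gene on the other strand, compared with 18.3% of protein-coding genes tested. Starts here are the outermost ends of the genes in GENCODE, which for some genes differ from the RefSeq starts used for promoters below. One such pair joins the subunits: by GENCODE ends MRPL46 at chr15:88459476-88467419 (minus strand) and MRPS11 at chr15:88467453-88480773 (plus strand) start 34 bases apart (GRCh38). The RefSeq upstream window of MRPS11, chr15:88467458-88467707, lies inside its GENCODE gene, so its RefSeq start is further from MRPL46. The 33 bases between the GENCODE starts are shown because this stretch lies upstream of a large-subunit and a small-subunit gene at once. They are read 5′ to 3′ toward MRPL46, with no part in capitals.
MRPL46 and MRPS11, chr15:88467420-88467452, minus strand: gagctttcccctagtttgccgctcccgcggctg

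The values of this pair did not run in parallel in the knockdown libraries, while among the controls replicate 4 was the lowest for both genes. MRPL46 had control values of 47.2, 42.8 and 40.1 FPKM and knockdown values of 42.3, 42.4 and 49.01 FPKM. MRPS11 had control values of 33.8, 33.8 and 27.02 FPKM and knockdown values of 31.9, 35.2 and 27.4 FPKM. In knockdown replicate 4 MRPL46 had its highest value, while MRPS11 lay at -0.28 from its group's other libraries on the log2(FPKM + 1) scale. Other divergent partners also serve mitochondria. By GENCODE gene ends MRPL36 starts 34 bases from NDUFS6, a subunit of complex I, and MRPL47 starts 36 bases from NDUFB5, another. The RefSeq upstream window of MRPL36, chr5:1799838-1800087, lies inside its GENCODE gene, so its RefSeq start is further from NDUFS6. NDUFS6 had control values of 481, 469.6 and 366 FPKM and knockdown values of 433, 478 and 308 FPKM. MRPL36 had control values of 74.7, 75.1 and 57.6 FPKM and knockdown values of 65.99, 78.95 and 52.4 FPKM, with replicate 4 lowest in both groups for both genes.

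Promoters were searched for motifs of factors known for nuclear genes of mitochondria. RefSeq (GRCh38.p14) gave the 250 bases before the start of 68 of the 77 members by symbol. The ETS core CCGGAAG, bound by GABP among others, was present on either strand in 22 of 68 (32.4%), compared with 16.7% of 9171 promoters of genes tested and 8.82% of all 27305 promoters. The shares were 13 of 41 in the large and 9 of 27 in the small subunit. Some windows with the core lie wholly within annotated exons, those of MRPL38, MRPL40, MRPL43, MRPL48, MRPL51 and MRPL53. How often this holds for the promoters of other genes was not counted. The NRF1 motif with its middle base left free was found in 8 of 68 (11.8%, against 11.1% of genes tested), and its full form, which the free form contains, in 1 (1.47%, against 2.05%). The YY1 motif AAGATGGCG was found in 3 (4.41%, against 1.1%) and the E-box CACGTG in 6 (8.82%, against 9.37%). A match describes letters only, and no test of these shares was made.

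Stretches with an ETS core are shown for members of both subunits that lay low (MRPL3, MRPS10) and high (MRPS31) in the libraries numbered 4, and for MRPS22, which holds the core on both strands, and MRPS18A. Capitals mark CCGGAAG or its reverse complement, and each stretch is read 5′ to 3′ on the strand of its gene (GRCh38.p14).
MRPL3, chr3:131502984-131503043, minus strand: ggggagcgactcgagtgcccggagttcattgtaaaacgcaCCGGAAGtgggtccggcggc
MRPS10, chr6:42217866-42217923, minus strand: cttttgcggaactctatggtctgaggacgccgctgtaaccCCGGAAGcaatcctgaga
MRPS18A, chr6:43687792-43687862, minus strand: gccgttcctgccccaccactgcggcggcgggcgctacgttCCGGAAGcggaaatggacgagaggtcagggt
MRPS22, chr3:139343875-139343955, plus strand: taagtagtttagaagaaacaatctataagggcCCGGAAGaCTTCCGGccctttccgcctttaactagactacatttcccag
MRPS31, chr13:40771191-40771262, minus strand: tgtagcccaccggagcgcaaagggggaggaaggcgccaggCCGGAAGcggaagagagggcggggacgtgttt

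In MRPL3, MRPS18A and MRPS31 the core ends 24 or 25 bases before the RefSeq start. MRPS10, with the core 15 bases before its start, had the levels given among the lowest small-subunit genes, with replicate 4 lowest in both groups. MRPL3, which reaches toward the catalytic centre, had control values of 128, 126 and 117 FPKM and knockdown values of 122, 128 and 97.98 FPKM. MRPS22 had control values of 45.8, 43.1 and 41.7 FPKM and knockdown values of 39.6, 43.6 and 46.4 FPKM.

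Other genes of mitochondrial translation also gave no call. None of 7 further mitoribosome proteins, 14 translation factors, 27 assembly factors, 22 mitochondrial tRNA synthetases and 12 upstream regulators passed the threshold, and none had an unadjusted p under 0.05 in limma. Their median log2(FPKM + 1) differences were -0.04, -0.06, -0.02, -0.06 and -0.01. Fitted differences were below 0 for 6 of 7, 12 of 14, 17 of 27, 14 of 22 and 6 of 12.

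OXA1L, which inserts new proteins into the inner membrane, had control values of 81.8, 78.8 and 76.9 FPKM and knockdown values of 73.6, 78.2 and 70.1 FPKM. CHCHD1, a further small-subunit protein, had control values of 117, 107 and 90.8 FPKM and knockdown values of 99.7, 104 and 87.7 FPKM. GFM2, a factor of ribosome recycling, had control values of 22.6, 21.4 and 23.2 FPKM and knockdown values of 20.2, 20.7 and 20.9 FPKM, without overlap between groups (log2 difference -0.12, SE 0.07). TUFM, the factor that brings aminoacyl-tRNA to the mitochondrial ribosome, had control values of 101, 95.3 and 85.4 FPKM and knockdown values of 87.5, 94.03 and 72.9 FPKM, with overlap (difference -0.15, SE 0.12).

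The assembly GTPase MTG2 had control values of 13.6, 13.7 and 12.6 FPKM and knockdown values of 14.5, 14.9 and 14.8 FPKM. Its groups did not overlap, yet the difference of 0.14 (SE 0.07) did not pass (limma adjusted p = 0.9998). RBFA, a small-subunit maturation factor, did not overlap in the other direction, with control values of 3.43, 3.52 and 3.36 FPKM and knockdown values of 2.97, 3.13 and 2.61 FPKM. The valine synthetase VARS2 had control values of 20.7, 19.5 and 18.3 FPKM and knockdown values of 15.9, 18.2 and 18.3 FPKM, and the asparagine synthetase NARS2 had control values of 21.96, 23.5 and 22.2 FPKM and knockdown values of 20.3, 22.2 and 19.3 FPKM. Their groups overlapped.

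MYCN, the amplified oncogene of many neuroblastomas, had control values of 2169, 2139 and 1998 FPKM and knockdown values of 1935, 2063 and 1710 FPKM. PPARGC1A, a coactivator of mitochondrial biogenesis, had control values of 1.95, 2.34 and 2.69 FPKM and knockdown values of 3.03, 2.32 and 2.98 FPKM. Both overlapped between groups and neither passed the threshold.

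Beside the members' median of -0.06, cytosolic ribosomal proteins had a median log2(FPKM + 1) difference of -0.13 with 11 of 82 lower and 0 higher without overlap. Nuclear oxidative phosphorylation subunits had a median of -0.10 with 0 of 75 lower and 1 higher without overlap, the complex I subunit NDUFA9, named after its values were seen. Over all genes the shares were 4.35% lower and 4.01% higher. RPL3 had control values of 2307, 2116 and 2366 FPKM and knockdown values of 1823, 1985 and 1741 FPKM, and RPS6 had control values of 3317, 3352 and 3582 FPKM and knockdown values of 2900, 3115 and 2724 FPKM, both without overlap. The complex I subunits NDUFB7 and NDUFA6 had differences of -0.18 and -0.32 (SE 0.08 and 0.16). NDUFB7 had control values of 234, 236 and 219 FPKM and knockdown values of 197, 220.0 and 189 FPKM. NDUFA6 had control values of 115, 106 and 81.8 FPKM and knockdown values of 83.4, 90.7 and 66.2 FPKM. No gene of these lists passed the threshold.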

How the data were processed

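RNA-seq of polyadenylated RNA gave 1 FPKM column per library. Per the submitters' processing notes, the authors used TopHat2 and Cuffdiff with hg38, with versions, annotation and strand setting not given in the sources used here. The authors scaled the deposited FPKM values to gene length and mapped total, so abundant transcripts can lower the others, and the read depth reached is unknown. From these, log2(FPKM + 1) was compared for the 12164 genes averaging 1 FPKM or more by limma 3.58.1 under R 4.3.3 (eBayes with trend), knockdown minus control, two-sided, no covariate, with Benjamini-Hochberg adjustment over all genes and a threshold of 0.05. The fit was tested on simulated data with noise independent between genes and of equal spread in all libraries. Shifts shared by many genes or an outlying library were not simulated. Differences in log2(FPKM + 1) are understated for low genes.

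The members and lists were chosen with earlier results of these data known. Genes encoded in mitochondrial DNA were not analysed here. The single values of 1 cell type marker are not reported here. Values in every library are given for the 6 members with the smallest p in each direction, the 3 highest and 3 lowest per subunit, MRPS18A to C, MRPS30, MRPS36, MRPL12 and MRPL40, and for 2 genes per other list with the smallest p. Promoter and pair examples were added. Positions and lengths come from GENCODE release 29 (GRCh38). Alternatives were other pseudocounts, filters, scalings, library weights, a replicate block, eBayes without trend, libraries left out and subunits by structure.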

Additional observations from a re-analysis of the deposited data

How the results depend on the processing

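No member passed the threshold under any of the 16 alternatives fitted. Over all genes the count was 0 except 22 with library weights, which favoured control replicate 3 (weight 7.98) and knockdown replicate 2 (3.34) and whose estimation stopped before converging, and 1 without both libraries numbered 4. MIAT passed in those settings, with log2 differences of -1.58 (adjusted p = 0.00299) and -1.54 (adjusted p = 0.0150), and its adjusted p ran from 0.00299 to 1 over the alternatives that kept it. Members lower without overlap numbered 1 under quantile normalization, where 5.56% of all genes were lower. Without both libraries numbered 4, 22 members were lower, beside 19.34% of all genes, and 2 were higher, beside 16.98%. With single libraries left out the count of members lower ran from 2 to 16, beside 6.53% to 11.65% of all genes. That of members higher ran from 0 to 2, beside 6.26% to 11.15% of all genes. The gap between subunits was -0.0027 with subunits by structure. Differences changed sign for MRPL44 (-0.0268), MRPL40 (-0.0394), MRPL22 (-0.0028) and MRPL38 (-0.0064) with library weights, and for MRPS18C (-0.0476) and MRPL44 (-0.0277) without both libraries numbered 4. The difference of MRPS18A was -0.261 with library weights (limma adjusted p = 0.0864), the lowest adjusted p among the members followed by name. With single libraries left out, values ran from -0.0627 to 0.0301 for MRPS18B, -0.1541 to 0.0033 for MRPS36, -0.0345 to 0.1012 for MRPL38, -0.1782 to 0.0165 for MRPS18A, -0.0079 to 0.1297 for MRPL40, -0.0049 to 0.0777 for MRPL22 and -0.006 to 0.0844 for MRPL44. The cause was not tested. Replicate 4 was lowest in both groups for 46 members under upper-quartile scaling and for 37 under quantile normalization.

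The replicate block left 0 genes and 0 members past the threshold, with subunit medians of -0.0723 and -0.0587 as without it. The labels do not say that the numbers pair the libraries, so they were not taken as pairs. Deviations of same-numbered libraries correlated at 0.092, 0.168 and 0.322 over all genes for replicates 2, 3 and 4. Control replicate 4 correlated best with knockdown replicate 4, both over all genes (0.322) and over the 77 members (0.447). Over all genes control replicates 2 and 3 did not correlate best with their own number; over the 77 members control replicate 3 did (0.48) and control replicate 2 did not (-0.044). The precision is limited by 3 libraries a group and by an unknown read depth.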

Other observations

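Some member genes have annotated copies or overlapping neighbours. Of the 77 members, 34 (44.2%) have a named pseudogene in the annotation, and 49 overlap another annotated gene. For 26 members the overlap is with a protein-coding gene on the other strand. How the authors shared reads between near-identical copies is not given here, nor is the strand setting, without which reads of overlapping partners cannot be told apart. MRPS31P5 had control values of 8.08, 6.96 and 7.74 FPKM and knockdown values of 7.53, 7.35 and 8.34 FPKM. MRPS31 itself lay higher in replicate 4 of both groups by 0.22 and 0.35 on the log2(FPKM + 1) scale, where MRPS31P5 lay higher by 0.04 and 0.15. MRPL45P2 had control values of 2.26, 3.24 and 3.11 FPKM and knockdown values of 2.31, 2.38 and 3.40 FPKM, and MRPL42P5 stayed between 1.30 and 2.13 FPKM. The part of these copies in the members' values was not tested.

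MRPL18 starts 63 bases from TCP1, a subunit of the cytosolic chaperonin, on the other strand. TCP1 had control values of 129, 125 and 116 FPKM and knockdown values of 127, 129 and 84.6 FPKM. Both genes of this pair were lowest in replicate 4 of each group, with shifts of -0.54 and -0.49 for MRPL18 and -0.13 and -0.59 for TCP1. In GENCODE the starts of MRPL32 and of the proteasome subunit gene PSMA2 overlap on opposite strands. The shifts of MRPL32 and PSMA2 were -0.29 and -0.21 in control replicate 4, and -0.06 and 0.21 in knockdown replicate 4. These pairs were chosen after their values were seen.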
